A study of Mus musculus with 12 samples.

Results

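The genes described here code for proteins that coat lipid droplets, build and break down the triglyceride inside them, and carry the fatty acids that are set free. All non-control probes whose gene name in the array files equalled 1 of 10 symbols were taken: *Plin2*, *Plin4*, *Plin5*, *Cidea*, *Cidec*, *Pnpla2*, *G0s2*, *Dgat1*, *Dgat2* and *Fabp4*. The array held 13 probes for these 10 genes, of 56605 probes and 37074 gene symbols in all. The samples were hearts of 12 male C57BL6/J mice aged 5 months, whose messenger RNA was profiled with 1 array per mouse and 3 mice in each of 4 groups. Control mice (C) received vehicle, and C + P mice received pargyline, an inhibitor of monoamine oxidase, at 50 mg/kg/day for 12 weeks. Type 1 diabetes was induced in the D and D + P groups with streptozotocin, which destroys the β-cells of the pancreas, injected at 50 mg/kg/day on 5 days. D mice then received vehicle and D + P mice the same pargyline treatment. Animals counted as diabetic from a blood glucose of 17 mM. Both diabetic groups are therefore models of insulin deficiency.

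The heart takes up more fatty acid than it burns at once and holds the surplus as triglyceride in lipid droplets. Perilipins coat the droplet and set which enzymes can reach the fat, CIDE proteins enlarge droplets, diacylglycerol acyltransferases make triglyceride, and adipose triglyceride lipase, the product of *Pnpla2*, starts its breakdown under the restraint of the G0S2 protein. In diabetes the heart leans on fatty acids as fuel, and several of these genes are known targets of PPARα, a nuclear receptor that fatty acids activate. PPARα binds DNA together with RXR at direct repeats of the hexamer AGGTCA with 1 base between them.

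The promoters of the perilipins are shown because *Plin2* and *Plin5* had some of the larger differences among the 12 tested probes, and because the receptor's hexamer can be looked for in them. The promoter table used here, made from RefSeq (GRCm38.p6), held 6 of the 10 genes with 8 promoters in all, each running from 250 bases before a start to 50 bases after it. The hexamer AGGTCA, searched on both strands, stood in 3 of these 8 promoters, while 16.3% of all 32851 promoters held it. The full direct repeat was in 0 of the 8 and in 0.0396% of all promoters. In *Plin2* it lay on the opposite strand at position -218 from the start, so that it reads TGACCT here, and in *Plin5* on the gene's own strand at position -170. A second, overlapping *Plin5* promoter held it at position 13, after its start. The promoter of *Plin4* is set beside them as the perilipin promoter without a match in this window. Capitals mark the hexamer. A match describes these letters only and is not evidence of binding.
Plin2, chr4:86670010-86670309, minus strand: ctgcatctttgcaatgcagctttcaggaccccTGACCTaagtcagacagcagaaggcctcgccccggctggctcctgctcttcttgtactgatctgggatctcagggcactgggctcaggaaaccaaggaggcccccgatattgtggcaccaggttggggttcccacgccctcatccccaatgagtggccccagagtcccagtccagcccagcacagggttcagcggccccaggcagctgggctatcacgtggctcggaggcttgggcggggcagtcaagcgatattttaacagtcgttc
Plin5, chr17:56117499-56117798, minus strand: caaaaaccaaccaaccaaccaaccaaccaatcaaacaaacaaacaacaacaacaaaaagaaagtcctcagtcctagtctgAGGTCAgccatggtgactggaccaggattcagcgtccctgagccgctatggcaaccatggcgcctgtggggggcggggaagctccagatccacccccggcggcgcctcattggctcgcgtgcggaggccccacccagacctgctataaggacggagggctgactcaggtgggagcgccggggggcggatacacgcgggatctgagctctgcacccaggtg
Plin4, chr17:56109733-56110032, minus strand: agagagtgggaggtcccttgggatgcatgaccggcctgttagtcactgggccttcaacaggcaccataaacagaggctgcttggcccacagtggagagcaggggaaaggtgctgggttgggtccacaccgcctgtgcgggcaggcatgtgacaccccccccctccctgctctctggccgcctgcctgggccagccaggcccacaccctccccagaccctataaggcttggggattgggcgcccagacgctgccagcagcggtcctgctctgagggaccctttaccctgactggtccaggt

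The number of spots well above background ranged from 23556 to 29231 of 59305 per array, and 0 spots were saturated. All 8 cardiomyocyte markers examined, among them *Myh6* and *Actc1*, were well above background on 12 of 12 arrays, as the labelled tissue requires. One slide carried the 6 arrays without pargyline and the other the 6 arrays with it, so pargyline and slide cannot be told apart where groups with and without pargyline are compared. On both slides the non-diabetic hearts occupied row 1 and the diabetic hearts row 2, so slide row and diabetes cannot be told apart. Arrays differed in how closely 2 probes of the same transcript tracked each other. Over 1934 such probe pairs the SD of the pair difference was 0.23 to 0.35 on 8 arrays, 0.60 on D replicate 1, 0.52 on D + P replicate 3, 0.46 on C + P replicate 1 and 0.44 on D + P replicate 1.

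Probes were tested where, in each group, 50% or more of the arrays gave a signal significantly above 0 by the scanner software, which 12 of the 13 probes did, for 9 of the 10 genes. The exception was *Cidec*, whose probe (chromosome 6, 113374693 to 113374752 in mm9) was well above background on 0 of 12 arrays. Its log2 level lay between 3.15 and 4.57 and overlapped in all groups. CIDEC, also called FSP27, enlarges the single large droplet of white adipocytes. The other genes were well above background on all 12 arrays apart from *Dgat1*, which was so on 2 of the 3 arrays of D + P.

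Diabetes was compared first over both pargyline arms, since a shift shared by all arrays of a slide cancels in that mean. None of the 12 probes passed the threshold (limma, Benjamini-Hochberg adjusted p below 0.05), against 0.107% of all 30859 probes tested. At an unadjusted p below 0.05 there were 7 of 12 probes, from *Plin2*, *Plin4*, *Plin5*, *Cidea* and *Fabp4*, where 11.4% of all probes met that level. All 7 were higher in diabetes, as were 5.93% of all probes at that level. *Plin2* and *Plin5* each entered this count with 2 probes. The genes were chosen with earlier results of these data known, so the excess over all probes is no independent result. Over the brightest tested probe of each of the 9 genes the median log2 difference was 0.29, with 7 genes higher and 2 lower, and the median over all tested probes was -0.01. In whole heart tissue, more cells of a type and more RNA per cell cannot be told apart.

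**Figure D1:**
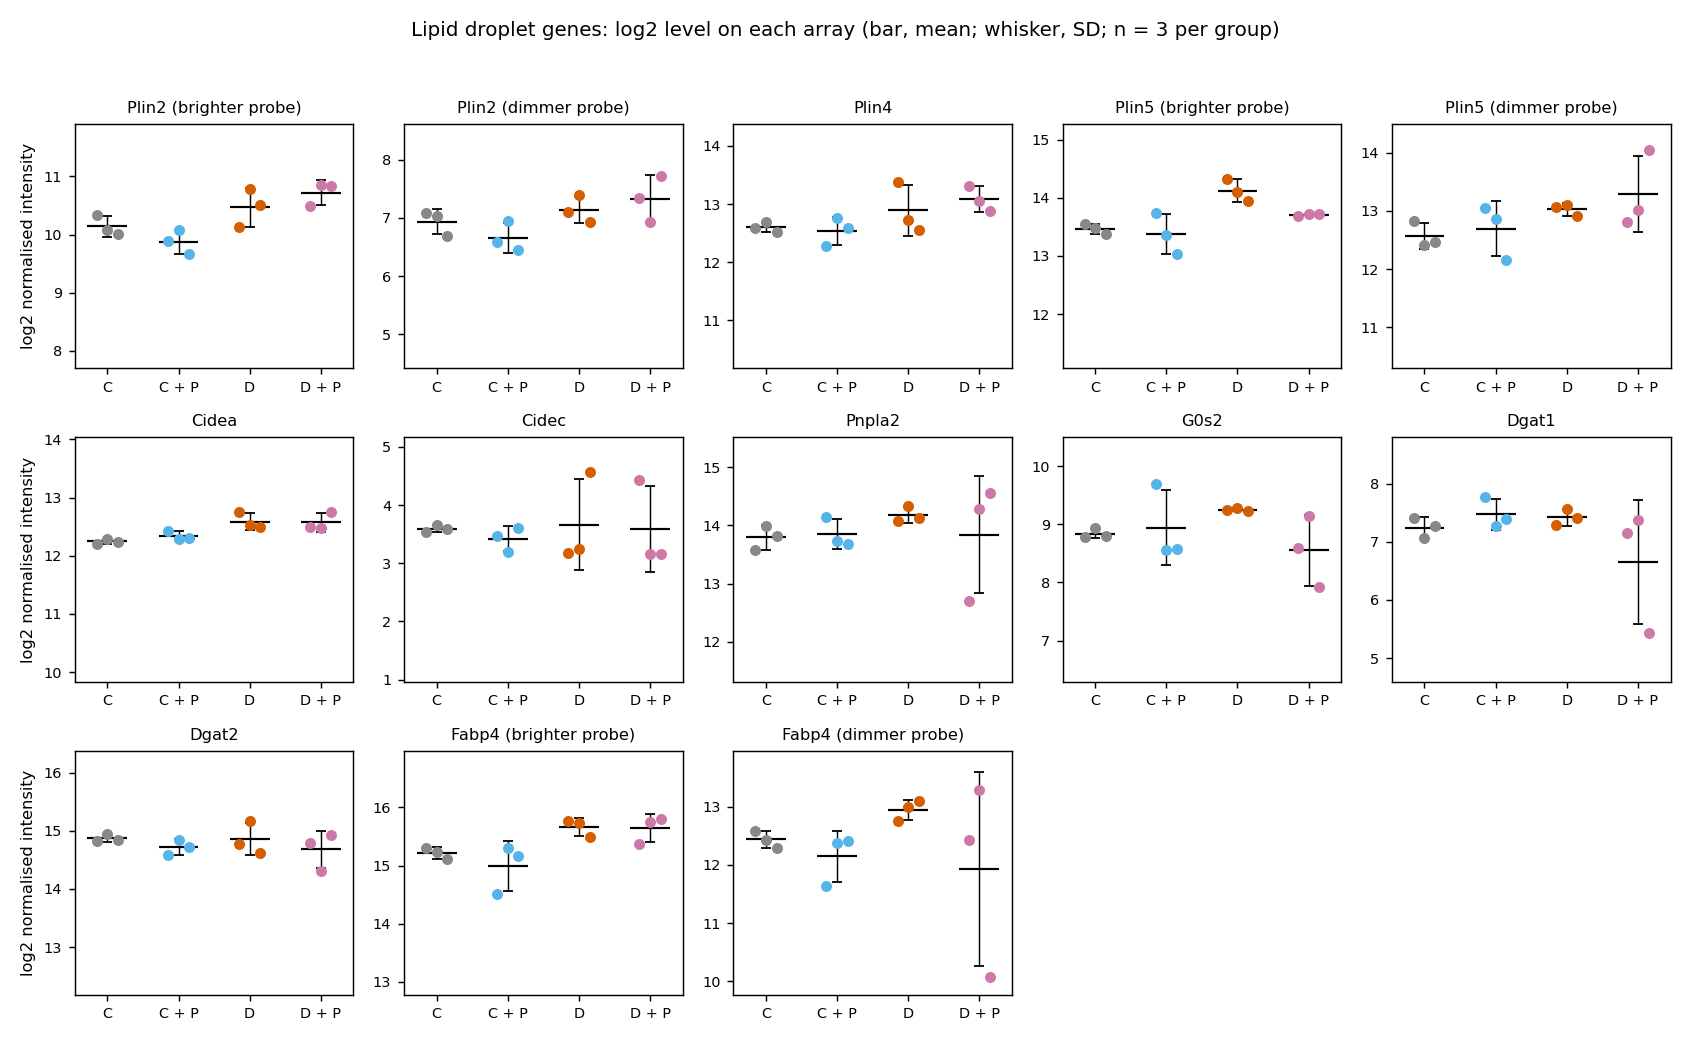
Log2 normalised intensity (y axis) of the 13 probes on each of the 12 arrays, by group (x axis), with points for arrays, bars for group means and whiskers for the SD (n = 3). The y axes start at different levels but all span the same range; all points of D and D + P lie above those of C and C + P for *Cidea* and the brighter *Fabp4* probe, while those of *Cidec* lie between 3.15 and 4.57 in all groups.

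Perilipin 2, the coat protein that accumulates with stored lipid in most tissues, was read by 2 probes. The brighter one (A_55_P1999648, chromosome 4, 86302847 to 86302906 in mm9) had log2 levels of 10.35, 10.08 and 10.01 in C and of 10.12, 10.78 and 10.51 in D. In C + P its log2 levels were 9.88, 10.07 and 9.66, and in D + P they were 10.49, 10.85 and 10.83. All D + P arrays therefore stood above all C + P arrays, while D replicate 1 fell within the range of C. The log2 difference was 0.59 averaged over pargyline (SE 0.14, adjusted p = 0.187), or 1.503-fold, with an exact two-sided permutation p of 0.01. The 2 arms gave 0.33 without pargyline (D against C, SE 0.21, adjusted p = 0.56) and 0.85 with it (D + P against C + P, SE 0.21, adjusted p = 0.293). The value without pargyline was 0.17 with D replicate 2 left out and 0.50 with D replicate 1 left out. The dimmer probe (A_66_P132059), of which the file places only 7 of 60 bases on the genome, had log2 levels of 6.45 to 7.73, with a log2 difference of 0.44 averaged over pargyline (SE 0.17, adjusted p = 0.368). Both probes gave the same direction in both arms.

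Perilipin 5 is the coat protein typical of heart and other tissues that burn fat, where it ties droplets to mitochondria and restrains lipolysis. The brighter of its 2 probes (A_55_P2104259, chromosome 17, 56251025 to 56251084) had log2 levels of 13.55, 13.48 and 13.37 in C and of 14.33, 14.09 and 13.95 in D. Its log2 levels in C + P were 13.73, 13.36 and 13.04, and in D + P 13.70, 13.72 and 13.71. The D arrays were the highest, above every array of the other 3 groups, and the D + P arrays lay very close together. Averaged over pargyline the log2 difference was 0.50 (SE 0.13, adjusted p = 0.219, exact permutation p = 0.02), or 1.41-fold. Without pargyline (D against C) it was 0.66 (SE 0.19, adjusted p = 0.316), the largest of the 12 probes in that comparison. With pargyline it was 0.33 (SE 0.19, adjusted p = 0.718), and it came to 0.16 without C + P replicate 3 and to 0.51 without C + P replicate 1. The second probe (A_51_P262757, 56251101 to 56251160), which lies next to the first, gave an averaged log2 difference of 0.53 (SE 0.23, adjusted p = 0.417). Its D + P mean was raised by replicate 3, at a log2 level of 14.04 where the other arrays read 12.16 to 13.10, and without that array the averaged log2 difference was 0.34 (adjusted p = 0.566).

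Perilipin 4, a coat protein of adipocytes and muscle, had 1 probe (A_51_P495780, chromosome 17, 56240055 to 56240114). Its log2 levels were 12.59, 12.69 and 12.52 in C and 12.27, 12.76 and 12.59 in C + P, against 13.39, 12.73 and 12.56 in D and 13.32, 13.05 and 12.88 in D + P. D overlapped C, and D + P lay above C + P. The averaged log2 difference was 0.42 (SE 0.16, adjusted p = 0.382, exact permutation p = 0.02). D replicate 1 was the highest array, and with D replicate 1, C + P replicate 1 and D + P replicate 3 left out the averaged log2 difference was 0.28 (adjusted p = 0.314) and that of D against C 0.049. *Plin4* and *Plin5* are neighbours on chromosome 17.

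*Cidea* codes for a CIDE protein known from brown fat, which promotes transfer of lipid between droplets. Its probe (A_51_P199168, chromosome 18) had log2 levels of 12.21, 12.30 and 12.24 in C and of 12.76, 12.52 and 12.49 in D. In C + P the log2 levels were 12.43, 12.30 and 12.30, and in D + P 12.49, 12.47 and 12.76. Every diabetic array stood above every non-diabetic array of its own arm, and also of the other arm. The averaged log2 difference was small, 0.29 (SE 0.10, adjusted p = 0.347), or 1.22-fold, with an exact permutation p of 0.005, the smallest that the 400 arrangements can give. The share of all probes that reach this value was not computed.

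The lipase gene *Pnpla2* and the gene of its inhibitor, *G0s2*, had an unadjusted p above 0.05 in all comparisons of diabetic with non-diabetic hearts. *Pnpla2* (A_55_P1961039, chromosome 7, 148645928 to 148645987) had log2 levels of 13.57, 13.99 and 13.83 in C and 14.15, 13.73 and 13.69 in C + P, against 14.07, 14.34 and 14.13 in D and 12.70, 14.28 and 14.55 in D + P. The D arrays lay above the C arrays, while D + P replicate 1 was the lowest of all arrays and D + P replicate 3 the highest. Without pargyline the log2 difference was 0.38 (SE 0.40, adjusted p = 0.728). With pargyline it was -0.01 (SE 0.40, adjusted p = 0.997), and there it came to 0.56 without D + P replicate 1 and to -0.37 without D + P replicate 3. *G0s2* (A_52_P681391, chromosome 1, 195098925 to 195098984) had log2 levels of 8.78, 8.93 and 8.80 in C and of 9.25, 9.28 and 9.23 in D. Its log2 levels in C + P were 9.69, 8.56 and 8.58, and in D + P 8.59, 9.14 and 7.93. D thus lay above C and above D + P with a narrow spread, whereas both pargyline groups were wide. The log2 difference was 0.42 without pargyline (SE 0.34, adjusted p = 0.651), -0.39 with it (SE 0.34, adjusted p = 0.813) and 0.01 averaged (SE 0.24, 95% interval -0.51 to 0.54, adjusted p = 0.991). The value with pargyline was -0.018 without C + P replicate 1 and -0.68 without D + P replicate 2. With D replicate 1, C + P replicate 1 and D + P replicate 3 left out, the value in D + P against C + P turned to 0.29 and the averaged one was 0.36 (adjusted p = 0.299).

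The final step of triglyceride synthesis is carried out by 2 unrelated enzymes. *Dgat2* (A_52_P592909, chromosome 7, 106302215 to 106302274) had log2 levels of 14.31 to 15.17 over all arrays, with overlapping groups. Its averaged log2 difference was -0.02 (SE 0.14, 95% interval -0.34 to 0.29, adjusted p = 0.963). *Dgat1* was read by a probe of 60 bases that spans 147 bases of chromosome 15 (A_52_P456134, 76333128 to 76333274), so its match to the genome is split. Its log2 levels were 7.41, 7.06 and 7.27 in C and 7.77, 7.27 and 7.38 in C + P, against 7.29, 7.57 and 7.40 in D and 7.15, 7.37 and 5.43 in D + P. A single array, D + P replicate 3, stood far below the other 11. The averaged log2 difference was -0.32 (SE 0.29, 95% interval -0.97 to 0.32, adjusted p = 0.704) with that array and -0.02 without it.

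*Fabp4* codes for a fatty acid binding protein of adipocytes, macrophages and capillary endothelium, and its 2 probes disagreed. The brighter probe (A_51_P336833, chromosome 3, 10204452 to 10204511) had log2 levels of 15.31, 15.23 and 15.11 in C and of 15.77, 15.73 and 15.50 in D. It read 14.50, 15.30 and 15.17 in C + P and 15.36, 15.75 and 15.80 in D + P on the same log2 scale. All diabetic arrays stood above all non-diabetic arrays. The averaged log2 difference was 0.55 (SE 0.16, adjusted p = 0.244), or 1.46-fold. Its exact permutation p was 0.005, again the smallest possible and again without a share of all probes beside it. The dimmer probe (A_52_P564544, 10208442 to 10208501) had log2 levels of 12.58, 12.44 and 12.29 in C and 11.64, 12.38 and 12.42 in C + P, against 12.76, 12.998 and 13.09 in D and 12.42, 13.29 and 10.08 in D + P. Its averaged log2 difference was 0.15 (SE 0.44, 95% interval -0.83 to 1.13, adjusted p = 0.923). Within the pargyline arm it was -0.22, which turned to 0.71 without D + P replicate 3 and to -0.90 without D + P replicate 2, where the brighter probe gave 0.65, or 0.40 without C + P replicate 1.

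The disagreement came from D + P replicate 3, the array on which the dimmer *Fabp4* probe was lowest and the brighter one highest. The log2 gap between the probes was 5.73 there and 2.40 to 3.01 on the other 11 arrays. Pearson's r between both probes, given as a description, was 0.13 over 12 arrays and 0.92 without this one. Without it the averaged log2 difference of the dimmer probe was 0.61 (adjusted p = 0.408) and that of the brighter probe 0.51 (adjusted p = 0.402). The spots carried no outlier flag of the scanner software. For *Plin5* the brighter minus the dimmer probe was also most extreme on this array, at -0.33 against 0.51 to 1.26 elsewhere, but for *Plin2* it was not. The *Fabp4* probes begin at bases 75 (dimmer) and 472 (brighter) of the transcript. The dimmer *Fabp4* probe and the *Dgat1* probe are printed because both read far lower on D + P replicate 3 than on the other arrays.
Fabp4, probe A_52_P564544: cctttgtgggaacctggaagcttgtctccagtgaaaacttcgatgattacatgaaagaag
Dgat1, probe A_52_P456134: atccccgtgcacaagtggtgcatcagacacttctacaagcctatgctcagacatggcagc

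**Figure D2:**
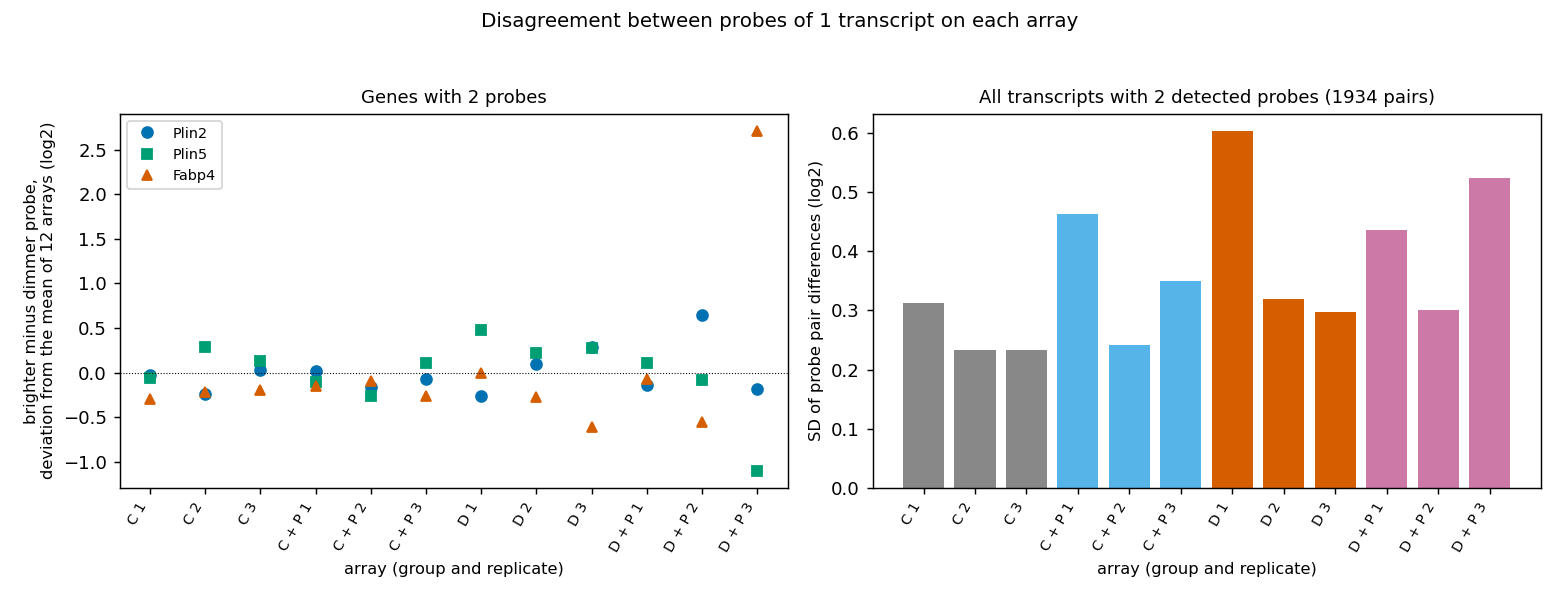
Left, log2 difference between the brighter and the dimmer probe of *Fabp4*, *Plin5* and *Plin2* on each array, as the deviation from its mean over 12 arrays; right, SD of the same kind of difference (log2) over 1934 probe pairs of single transcripts. *Fabp4* stands 2.71 above its mean on D + P replicate 3, and the SD is largest on D replicate 1, at 0.60.

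The arms were then read separately. In D against C, 0 of 12 probes passed the threshold (limma), against 0.00648% of all probes, and 2 of 12 had an unadjusted p below 0.05, against 10.8%. These were the brighter *Plin5* probe and *Cidea*. This count ran from 1 to 6 of 12 over the alternatives, with 5 where only the 6 arrays compared were fitted and 6 by the methods' *t*-test. The 10.8% belongs to the main fit. No share of all probes was computed for the fits with 5 and 6, so these counts have no background beside them. The 3 D arrays lay above the 3 C arrays for 7 of 12 probes, from *Plin5*, *Cidea*, *Pnpla2*, *G0s2* and *Fabp4*, and for 11.9% of all probes. In D + P against C + P, 0 of 12 passed (limma), against 0.0454%, and 4 of 12 had an unadjusted p below 0.05, against 7.46%. Those 4 were both *Plin2* probes, *Plin4* and the brighter *Fabp4* probe. The D + P arrays lay above the C + P arrays for 4 of 12 probes, from *Plin2*, *Plin4*, *Cidea* and *Fabp4*, and for 7.3% of all probes. The study's methods name *t*-tests with a Bonferroni correction, and the methods' *t*-test called 0 of the 12 probes in either comparison after Bonferroni or Benjamini-Hochberg adjustment.

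**Figure D3:**
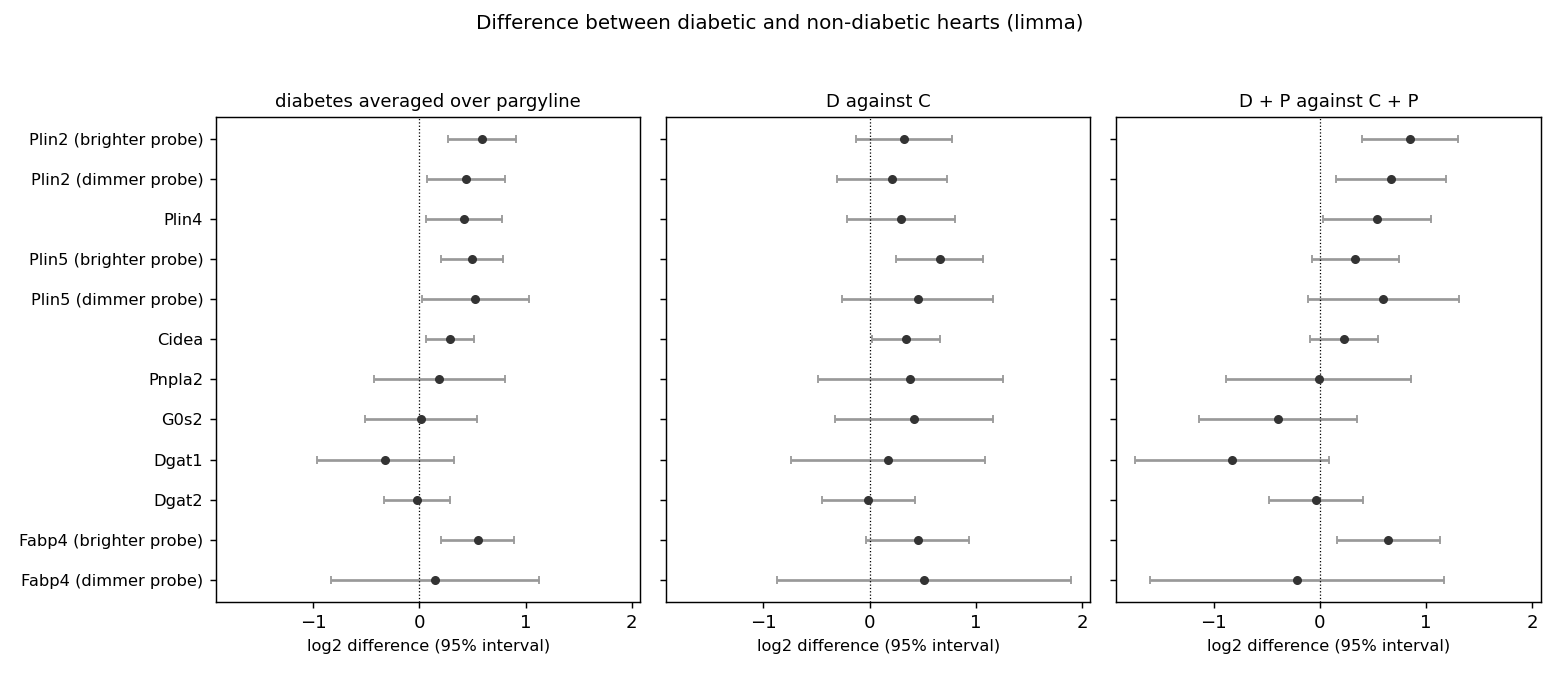
Log2 difference between diabetic and non-diabetic hearts (x axis, points with 95% intervals from limma) for the 12 tested probes (y axis), averaged over pargyline (left), without pargyline (middle) and with it (right). The averaged intervals of *Plin2*, *Plin4*, *Plin5*, *Cidea* and the brighter *Fabp4* probe lie above 0, those of *Dgat1*, *Dgat2*, *G0s2*, *Pnpla2* and the dimmer *Fabp4* probe include it.

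Whether pargyline altered the response to diabetes was addressed by the interaction, the log2 difference of D + P against C + P minus that of D against C. None of the 12 probes passed (limma), against 0.00648% of all probes, and 0 had an unadjusted p below 0.05, against 7.03%. The interaction of the brighter probes was 0.52 for *Plin2* (SE 0.29, adjusted p = 0.739) and -0.33 for *Plin5* (SE 0.26, adjusted p = 0.797), and it was -0.81 for *G0s2* (SE 0.48, adjusted p = 0.747). That of *Dgat1* was -1.0 (SE 0.58, adjusted p = 0.742), which came to -0.39 without D + P replicate 3 and to -1.36 without D + P replicate 2. With 1 array left out the interaction of *G0s2* ran from -1.10 without D + P replicate 2 to -0.43 without C + P replicate 1, and that of the brighter *Plin5* probe from -0.49 without C + P replicate 3 to -0.15 without C + P replicate 1. In C + P against C, 0 of 12 probes passed (limma), against 0.0324%, and 0 had an unadjusted p below 0.05, against 4.43%. The log2 differences there ran from -0.29 to 0.23. In D + P against D, which shares its D arrays with D against C, 0 of 12 passed (limma), against 0% of all probes, and 1 of 12 had an unadjusted p below 0.05, against 13.3%. That probe was the brighter one of *Plin5*, at -0.41 (SE 0.19, adjusted p = 0.371), while the neighbouring second *Plin5* probe gave 0.27 (SE 0.32, adjusted p = 0.736), or -0.11 without D + P replicate 3. The D + P arrays lay below the D arrays for 2 of 12 probes, those of *Plin5* and *G0s2*, and for 9.1% of all probes. For *G0s2* the log2 difference was -0.70 (SE 0.34, adjusted p = 0.394), or -0.39 without D + P replicate 3. With the same 3 arrays left out as for *G0s2*, 8 of the 12 probes had an unadjusted p below 0.05 in diabetes averaged over pargyline, against 14.7% of all 33025 probes tested without them, and 0 passed the threshold (limma), with log2 differences of 0.65 for *Plin2*, 0.53 for *Plin5* and 0.36 for *Fabp4* by the brighter probes and 0.22 for *Cidea*. The methods' *t*-test also called 0 of the 12 in both pargyline comparisons.

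Other genes of the same pathways were taken from 4 lists, with the brightest tested probe of each gene. Among droplet coat and formation genes all 15 of 15 listed were tested and 0 passed in any of the 6 comparisons (limma). In diabetes averaged over pargyline 5 of the 15 had an unadjusted p below 0.05, against 11.4% of all probes (0 to 4 in the other 5 comparisons, against 4.43% to 13.3%), and the median log2 difference was 0.01. *Hsd17b11*, a droplet-bound dehydrogenase, had the highest, 0.75 (SE 0.14, adjusted p = 0.109), with mean log2 levels of 9.83 ± 0.15 in D and 9.64 ± 0.25 in D + P, against 9.15 ± 0.29 and 8.82 ± 0.25 in their controls C and C + P (SD, n = 3). *Plin3*, the perilipin of nascent droplets, had the lowest, -0.31 (SE 0.10, adjusted p = 0.276), opposite in sign to *Plin2*, *Plin4* and *Plin5*. The other 3 with an unadjusted p below 0.05, named after their values were seen, were *Hilpda* (0.54), *Cideb* (0.52) and *Rab18* (0.31), all with higher levels in diabetes.

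Of 10 lipolysis genes 8 were tested, 0 passed in any comparison (limma) and 0 had an unadjusted p below 0.05 in diabetes averaged over pargyline, against the same 11.4% (0 or 1 in the other comparisons). *Lipe*, hormone-sensitive lipase, which takes the second step of lipolysis, had a log2 difference of 0.42 (SE 0.34, adjusted p = 0.663), the mean of -0.13 in D against C and 0.97 in the pargyline arm (interaction 1.10, SE 0.67, adjusted p = 0.755). *Abhd6*, a monoacylglycerol lipase, had one of -0.44 (SE 0.27, adjusted p = 0.573). Of 19 triglyceride synthesis genes 17 were tested, 0 passed in any comparison (limma) and 5 of the 17 had an unadjusted p below 0.05 in that mean, again against 11.4% of all probes (0 to 2 in the other comparisons). The ends of that list were *Acsl3*, an acyl-CoA synthetase of growing droplets, at 0.87 (SE 0.33, adjusted p = 0.374), and *Lpin3*, a phosphatidate phosphatase, at -0.69 (SE 0.22, adjusted p = 0.286). *Acsl3* was well above background on 0 arrays of C and on 2 of 3 in each other group, so its level in C is only a bound. The other 3 with an unadjusted p below 0.05, also named after their values were seen, were *Gpam* at 0.36, *Agpat1* at -0.29 and *Acsl6* at -0.55. Of 13 fatty acid binding and uptake genes 7 were tested, 0 passed in any comparison (limma) and 1 of the 7 had an unadjusted p below 0.05 in that mean, near the share of 11.4% over all probes (0 or 1 in the other comparisons). This was *Slc27a1*, a fatty acid transport protein of muscle, at 0.60 (SE 0.17, adjusted p = 0.248), whereas *Slc27a3*, of the same family, had the lowest value, -0.30 (SE 0.22, adjusted p = 0.631). The median log2 differences of these 3 lists were 0.14, -0.04 and 0.15.

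**Figure D4:**
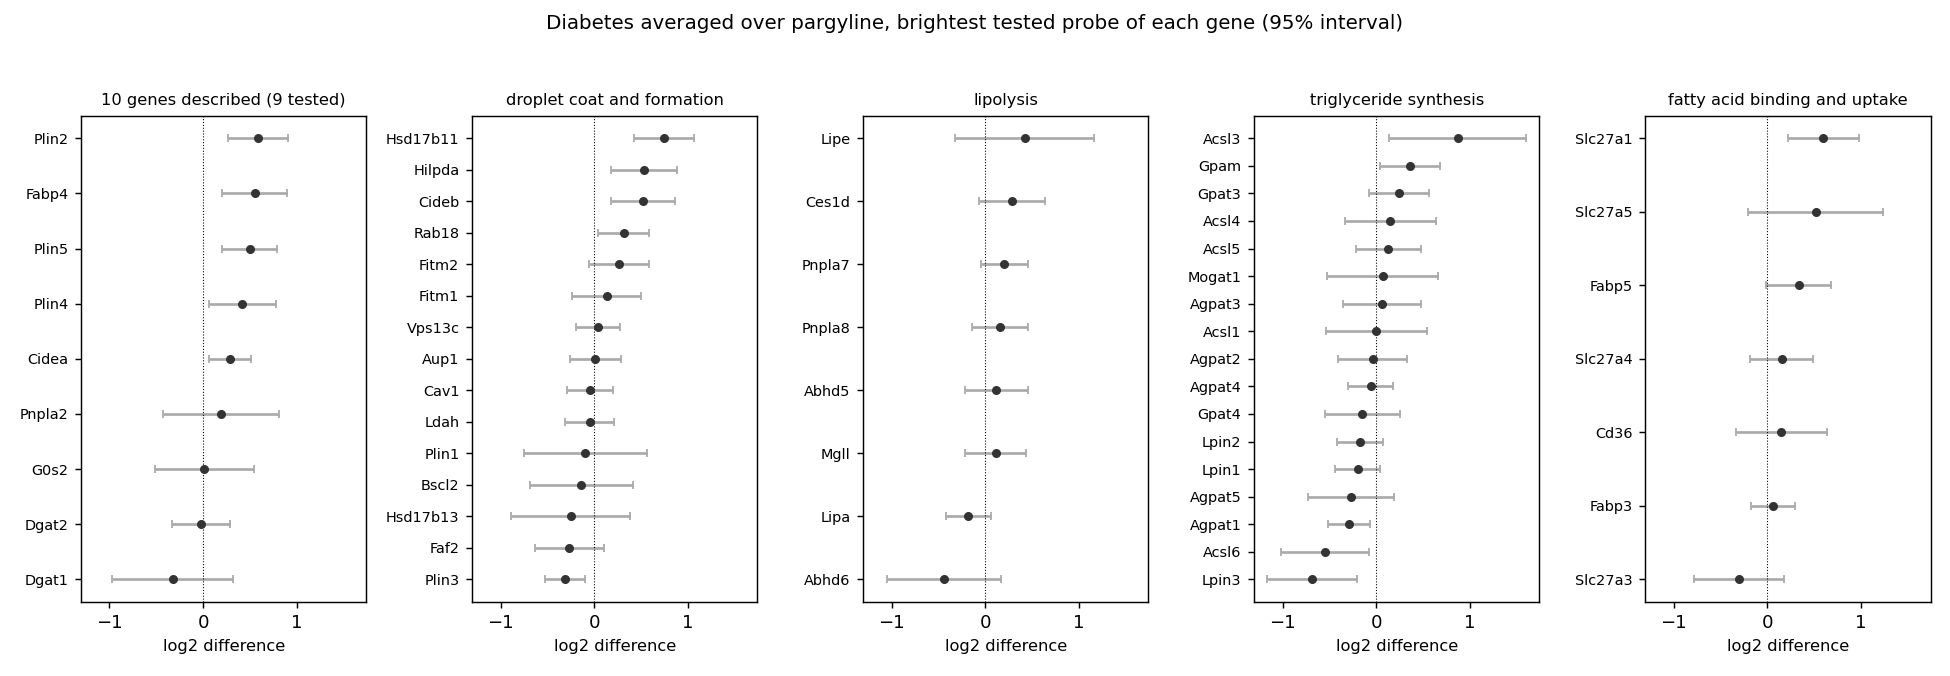
Log2 difference in diabetes averaged over pargyline (x axis, points with 95% intervals from limma) for the brightest tested probe of each gene (y axis), for 9 of the 10 genes described and for the 4 pathway lists. *Hsd17b11* at 0.75 and *Plin3* at -0.31 mark the ends of the droplet coat and formation list.

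Several of these genes are also expressed outside the cardiomyocyte, so markers of other cells were read on the same arrays. Of 10 adipocyte markers 6 were well above background on 0 of 12 arrays, namely *Adipoq*, *Retn*, *Plin1*, *Trarg1*, *Cyp2e1* and *Ucp1*, and only *Lep* and *Adig* were so on all 12. The log2 of the summed adipocyte signal was 8.87 to 9.14 in C and 8.71 to 9.27 in C + P, against 8.70 to 9.47 in D and 8.57 to 8.78 in D + P. D overlapped C, and D + P overlapped C + P. Of the 10 markers 7 had a tested probe, of which 5 were higher and 2 lower in D against C, from -0.88 (*Adig*) to 0.82 (*Cfd*), and 3 higher and 4 lower in the pargyline arm. None of these 7 passed the threshold (limma). Of the pair detected on all arrays, *Adig* had an averaged log2 difference of -0.80 (SE 0.16, adjusted p = 0.123), with -0.88 in D against C and -0.72 in the pargyline arm, and *Lep* one of 0.20 (SE 0.19, adjusted p = 0.72), with 0.38 and 0.017. All 8 endothelial markers were well above background on 12 of 12 arrays. Their summed log2 signal was 13.91 to 14.14 in C and 13.88 to 14.35 in C + P, against 13.92 to 14.07 in D and 14.23 to 14.51 in D + P. In D against C the groups overlapped, with means of 13.99 and 14.02, and in the pargyline arm, where the brighter *Fabp4* probe was 0.65 higher in D + P, the means were 14.41 in D + P and 14.18 in C + P, with overlap. Of the 8 endothelial markers 4 were higher and 4 lower in D against C, and 7 higher and 1 lower in the pargyline arm. All 7 macrophage markers were also detected throughout, with summed log2 signals of 14.07 to 14.29 in C and 14.12 to 14.79 in C + P, against 13.69 to 14.07 in D and 13.71 to 13.88 in D + P, so that in both arms all diabetic arrays lay below all non-diabetic ones, though D and C were parted by less than the rounding of these values. Taken singly, all 7 macrophage markers were lower in diabetes in both arms, and 0 endothelial or macrophage markers passed the threshold (limma). The part of adipocyte, endothelial and macrophage RNA in the values of *Fabp4*, *Cidea* and *Plin4* was not tested.

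**Figure D5:**
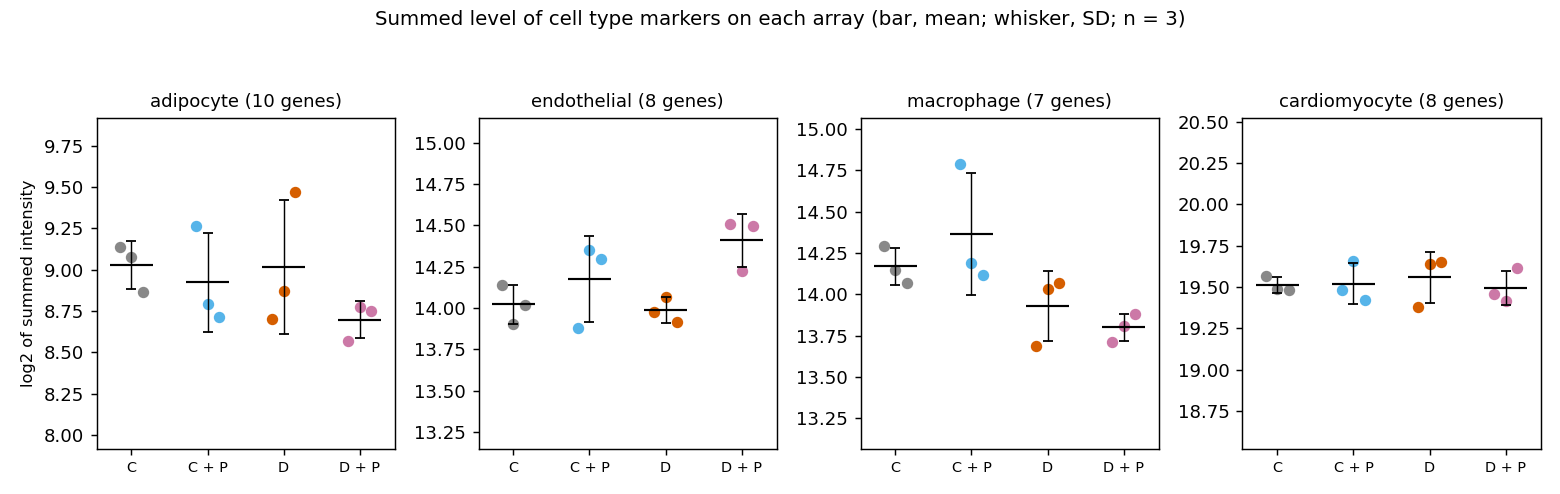
Log2 of the summed normalised intensity (y axis) of adipocyte, endothelial, macrophage and cardiomyocyte markers on each array, by group (x axis; bars, means; whiskers, SD; n = 3). Each y axis spans the same range, and the adipocyte sum of D + P, 8.57 to 8.78, overlaps that of C + P, 8.71 to 9.27.

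For each gene the 3 other genes with the most similar profile over the 12 arrays were looked up among 14673, by Pearson's r of the brightest probes. The r values ran from 0.82 to 0.98, are the highest of many and describe these arrays only, with group differences and array noise in them. *Plin2* was most like *Eif4ebp1* (r = 0.93), *Fdft1* and *Fbxo21*, and *Plin5* most like *Cmtr2* (r = 0.97), *Klhl13* and *Plagl1*. *Plin4* came nearest to *2310005E17Rik* (r = 0.96), *Rnf152* and *Tbc1d8b*, and *Cidea* to *Ngdn* (r = 0.95), *Nrtn* and *Kif6*. *Fabp4* was followed by *Pxmp4* (r = 0.97), *Dlc1* and *Uso1*. *Pnpla2* paired with *Cabcoco1* (r = 0.96), *Iscu* and *Sox6*, and *G0s2* with *Masp1* (r = 0.94), *Hjv* and *Rtcb*. *Dgat1* had the highest value, with *Alg9* (r = 0.98), *Ythdf2* and *Pnkd*, but this rested on D + P replicate 3, without which the same 3 r values were 0.70 to 0.76. *Dgat2* had the lowest, with *Kdm1a* (r = 0.87), *Acap2* and *L3hypdh*, and 0.60 to 0.76 without D + P replicate 2. For the other genes, r without the array farthest from the gene's median was 0.83 to 0.97.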

How the data were processed

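Each deposited scanner file holds spot intensity on a linear scale, from which the authors' Feature Extraction software (version 12.0.0.7 per the file headers, a different version in the study's methods) had subtracted background. The authors labelled RNA with Cy3 for single-channel Agilent mouse arrays, and the deposited series values give intensity after quantile normalisation. Here scanner intensity was log2 transformed, outlier spots by the scanner's flags were left out, the 12 arrays were quantile normalised, and repeated spots averaged. Of 56605 probes, 30859 were tested, those whose signal the software called positive and significant in 50% or more of each group's arrays. Values not so called, 2.03% of those tested, were kept.

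A mean per group was fitted to every probe over the 12 arrays (limma 3.58.1, R 4.3.3; two-sided), with Benjamini-Hochberg adjustment over all tested probes of a comparison and a threshold of 0.05. A gene passed where any probe passed. Intervals are 95% intervals of the fit. The exact permutation test rearranged diabetic labels within each pargyline arm (400 arrangements, smallest two-sided p 0.005). It was run for 12 probes without adjustment over them, and not for all probes of the array. Its p is printed for the brighter probes of *Plin2*, *Plin5* and *Fabp4* and for *Plin4* and *Cidea*, and not for the other probes. Between 2 groups of 3 arrays the smallest two-sided permutation p is 0.1, so those comparisons rest on limma. The fit was tested on simulated data. The number of arrays limits the precision.

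The genes, pathway lists and markers were chosen with earlier results of these data known. Text names all probes of the 10 genes and, of each pathway list, genes past the threshold or else those with the highest and lowest averaged difference. Outside this rule, genes with an unadjusted p below 0.05 were also named in the droplet coat and triglyceride synthesis lists, after their values were seen. Gene names were matched by accession to RefSeq, with older symbols as synonyms, for names only. Probe positions are those of the files (mm9). The labels give same-numbered arrays of different groups no link beyond the number. Plots were made in matplotlib 3.10.9 (Python 3.11.15, numpy 2.4.6, pandas 2.3.3).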

Additional observations from a re-analysis of the deposited data

How the results depend on the processing

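In each of the 6 comparisons 0 of the 9 tested genes passed the threshold. The count of 0 held under all alternatives tried, including the authors' series table, other filters on dim probes, the methods' *t*-test and each array left out in turn, with 1 exception. With arrays weighted by quality, 2 genes passed in diabetes averaged over pargyline, *Plin2* at 0.67 (limma, adjusted p = 0.0345) and *Plin5* at 0.51 (adjusted p = 0.044), where 397 of all 30859 probes passed against 33 without weights. The averaged log2 difference lay between 0.51 and 0.67 for *Plin2*, 0.41 and 0.58 for *Plin5*, 0.36 and 0.63 for *Fabp4* (the brighter probes) and 0.22 and 0.44 for *Cidea* under 23 alternatives, always with an unadjusted p below 0.05. The dimmer probes met that level under 18 (*Plin2*), 15 (*Plin5*) and 2 (*Fabp4*) of the 23, and *Plin4* under 20. With 1 array left out, 4 to 7 of the 12 probes had an unadjusted p below 0.05 in that comparison, 4 of them without C replicate 3. In the pargyline arm (D + P against C + P) that count ran from 2 to 6 over the alternatives and arrays left out, in D + P against D from 0 to 3 and in the interaction from 0 to 2, with the highest counts of both without D + P replicate 2. Apart from the fit with 3 arrays left out, no share of all probes at that level was computed under these settings. These counts therefore have no background to be read against. With the replicate number as a block, 0 genes passed in all 6 comparisons, and 4 of all probes in place of 33 did so for diabetes averaged over pargyline. Same-numbered arrays correlated between -0.20 and 0.20 over 18 pairs, and 5 of 12 arrays correlated best with their own number. With 3 arrays per group this check could not exclude a pairing, and the labels name none. Slide as a random block could not be fitted, since each group lies on 1 slide.

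Of 1752 values for 72 differences, 76 had the opposite sign, in 26 differences, and the cause was not tested unless the arrays left out show it. With the 75th percentile of each array in place of quantile normalisation, *Dgat2* came to 0.0395 averaged and 0.18 in D against C, and interactions to -0.073 for the dimmer *Plin5* and -0.055 for the brighter *Fabp4* probe. With normexp background correction the averaged values were -0.069 for the dimmer *Fabp4* probe and -0.16 for *G0s2*. In C + P against C that setting gave -0.019 for *Pnpla2* and 0.11 for the brighter *Plin5* probe, in D + P against D 0.12 for *Cidea* and 0.12 for *Dgat2*, and 0.22 for the interaction of *Dgat2*. Array weights gave 0.11 for *Dgat2* in D against C, and 0.0345 for *G0s2* and 0.28 for *Pnpla2* in D + P against C + P. In C + P against C they gave 0.0067 for the brighter *Fabp4* probe, 0.0705 for *Plin4*, -0.21 for *G0s2* and -0.10 for *Pnpla2*. In D + P against D they gave 0.018 for *Cidea*, 0.0054 for the brighter *Fabp4* and -0.021 for the dimmer *Plin2* probe, and the interaction of the brighter *Fabp4* probe was -0.0013.

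Leaving out D replicate 1, C + P replicate 1 and D + P replicate 3 together was chosen after seeing the data. *Dgat1* was then 0.087 averaged and *Dgat2* 0.029 in D against C, with 0.46 for the dimmer *Fabp4* probe and 0.29 for *G0s2* in D + P against C + P. In C + P against C the values were -0.064 for the dimmer *Plin5* probe, 0.023 for the brighter *Fabp4* probe, 0.077 for *Plin4*, -0.27 for *G0s2* and -0.089 for *Pnpla2*. In D + P against D they were -0.085 for the dimmer *Plin5* and -0.0325 for the dimmer *Plin2* probe, and in the interaction -0.021 for the dimmer *Plin5* and -0.081 for the brighter *Fabp4* probe.

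With 1 array left out at a time, these differences spanned 0. Averaged over pargyline, the dimmer *Fabp4* probe ran from -0.19 to 0.61, *Dgat2* from -0.10 to 0.068 and *G0s2* from -0.13 to 0.20. *Dgat2* ran from -0.17 to 0.10 in D against C. In the pargyline arm, D + P against C + P, it ran from -0.16 to 0.15, while the dimmer *Fabp4* probe ran from -0.90 without D + P replicate 2 to 0.71 without D + P replicate 3 and *Pnpla2* from -0.37 to 0.56. In C + P against C the ranges were -0.064 to 0.38 for the dimmer and -0.27 to 0.081 for the brighter *Plin5* probe, -0.38 to 0.023 for the brighter *Fabp4* probe, -0.16 to 0.077 for *Plin4*, -0.27 to 0.30 for *G0s2* and -0.089 to 0.15 for *Pnpla2*. In D + P against D they were -0.11 to 0.0665 for *Cidea*, -0.11 to 0.51 for the dimmer *Plin5* probe, -0.11 to 0.11 for the brighter *Fabp4* probe, -0.30 to 0.0076 for *Dgat2*, -0.69 to 0.24 for *Pnpla2* and -0.0126 to 0.39 for the dimmer *Plin2* probe. Interactions ran from -0.23 to 0.39 for the dimmer *Plin5* probe, -0.0505 to 0.35 for the brighter and -1.41 to 0.20 for the dimmer *Fabp4* probe, -0.15 to 0.16 for *Dgat2* and -0.75 to 0.18 for *Pnpla2*.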
